A study of Homo sapiens with 8 samples.

Results

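The 220 genes described here are the protein-coding olfactory receptor genes that lie on chromosomes 1 to 22 other than chromosome 11. They were chosen by symbol, which had to read OR, digits, letters, digits and at most 1 further letter, and they are 220 of the 19974 protein-coding genes on chromosomes 1 to 22 and X. They lay on 16 chromosomes and belonged to families 1 to 14. Of the 220 genes, 185 sat in 12 clusters, defined as at least 5 receptor genes of a chromosome whose neighbours started within 1 Mb of each other, and 35 were scattered. The largest cluster, with 43 genes, lay near the end of the long arm of chromosome 1 (chr1:247449118-248702766, build GRCh38.p14) and is called the distal cluster below; it held 33 genes of family 2 and 6 of the 7 genes of family 14.

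Odorant receptors are G protein-coupled receptors that bind volatile molecules on the cilia of olfactory sensory neurons. Each such neuron expresses a single receptor allele, and the receptor genes that it does not use are packed in constitutive-type heterochromatin marked by methylated lysine 9 of histone H3, the mark that HP1 proteins bind through their chromodomain. Outside the nose most receptor genes are silent.

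HP1a (the product of CBX5) and HP1b (the product of CBX1) were mapped by chromatin immunoprecipitation and sequencing (ChIP-seq) in MCF10A, a non-tumorigenic human breast epithelial line. There were 8 libraries in 4 groups of 2, numbered as replicates 1 and 2: HP1a in wild-type cells without treatment, HP1a in HP1b knockdown, HP1b in wild-type cells without treatment, and HP1b in HP1a knockdown. How the knockdowns were made, and whether replicates were separate cultures, is not given in the sources used here, so p-values measure only the spread between these libraries. The deposited lists hold broad peaks and no read counts or expression, so read depth is unknown and the cell type cannot be checked by its markers. The lists held 134058 and 115564 peaks for wild-type HP1a, 19638 and 19092 for HP1a in HP1b knockdown, 239563 and 240090 for wild-type HP1b, and 159536 and 225991 for HP1b in HP1a knockdown; they covered 69.8, 60.4, 9.89, 9.68, 158.1, 157.1, 118.4 and 164.9 Mb in that order. A gene's covered share is the percentage of its annotated bounds plus 1 kb on each side that lies under peaks, and a gene has a peak if at least 1 base does. A covered share of 0 says that no peak was listed there, not that the protein was absent.

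Most receptor promoters had no peak in any library. RefSeq promoter windows, from 250 bases before to 50 after the annotated start, were matched by gene identifier for 178 of the 220 genes (187 windows). Peaks were counted over the 250 bases before the start, and base content and motifs over the whole window. No library had a peak over 153 of these windows, 24 windows had a peak in 1 library, and 10 in at least 2. In the distal cluster 7 of 37 windows had a peak in any library. These counts over the libraries together were not made for the promoters of all genes. They therefore do not show whether receptor promoters differ from others, and shares for each library follow below. The 4 promoters below, read from RefSeq on GRCh38.p14, are among the 7 windows with at least 50 bases under peaks in each of at least 2 libraries, a choice made after the values were seen. Each run is the 250 bases before the start, 5′ to 3′ on the strand of the gene, with capitals for bases under a peak in at least 2 libraries. They stand for a promoter listed only without HP1a (OR6B2, chr2:240030430-240030679, minus strand), one that both paralogs covered (OR2A1, chr7:144312169-144312418, plus strand), one with peaks in both knockdowns (OR4F6, chr15:101803259-101803508, plus strand) and one from the most heavily covered cluster (OR7D2, chr19:9178729-9178978, plus strand).
OR6B2: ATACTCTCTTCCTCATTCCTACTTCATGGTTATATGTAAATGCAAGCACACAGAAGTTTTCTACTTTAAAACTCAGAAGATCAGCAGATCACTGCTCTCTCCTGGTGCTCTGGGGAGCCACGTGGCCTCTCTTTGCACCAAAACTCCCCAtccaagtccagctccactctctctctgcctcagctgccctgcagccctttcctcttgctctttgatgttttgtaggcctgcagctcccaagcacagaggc
OR2A1: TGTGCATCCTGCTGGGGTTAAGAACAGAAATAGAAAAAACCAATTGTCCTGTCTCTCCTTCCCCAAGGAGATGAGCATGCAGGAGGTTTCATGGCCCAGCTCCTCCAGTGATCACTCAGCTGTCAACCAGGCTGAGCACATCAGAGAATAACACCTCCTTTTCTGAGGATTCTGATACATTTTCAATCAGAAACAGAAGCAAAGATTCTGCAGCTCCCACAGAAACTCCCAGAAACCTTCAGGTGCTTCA
OR4F6: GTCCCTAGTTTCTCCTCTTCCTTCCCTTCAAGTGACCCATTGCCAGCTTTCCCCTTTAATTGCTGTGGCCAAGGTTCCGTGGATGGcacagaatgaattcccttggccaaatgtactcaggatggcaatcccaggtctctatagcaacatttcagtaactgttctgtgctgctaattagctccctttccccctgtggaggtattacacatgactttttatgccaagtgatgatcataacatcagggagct
OR7D2: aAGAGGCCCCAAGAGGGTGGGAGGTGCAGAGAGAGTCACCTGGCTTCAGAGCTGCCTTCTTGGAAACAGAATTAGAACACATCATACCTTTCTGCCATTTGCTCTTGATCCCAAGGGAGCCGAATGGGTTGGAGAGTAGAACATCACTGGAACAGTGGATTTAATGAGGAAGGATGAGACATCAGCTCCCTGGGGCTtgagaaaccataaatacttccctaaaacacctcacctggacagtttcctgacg

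The OR6B2 run was covered over 150 and 250 bases in replicates 1 and 2 of HP1b in HP1a knockdown and in no other library. The OR2A1 run was covered over 250 bases in wild-type HP1a replicate 2, 185 in HP1a with HP1b knocked down (replicate 1), and 238 and 250 in wild-type HP1b. The OR4F6 run was covered over 116 bases in HP1a with HP1b knocked down (replicate 1) and over 86 in HP1b with HP1a knocked down (replicate 2). The OR7D2 run was covered over 249 bases in wild-type HP1a replicate 2 and 197 in wild-type HP1b replicate 2. None of these 4 promoters was therefore covered in every library of both wild-type groups. Over all 187 windows, peaks lay on 8 and 2 in wild-type HP1a, 3 and 1 in HP1a with HP1b knocked down, 5 and 5 in wild-type HP1b, and 10 and 12 in HP1b with HP1a knocked down. In the same order these were 4.28 and 1.07, 1.60 and 0.535, 2.67 and 2.67, and 5.35 and 6.42% of receptor windows, beside 2.44 and 1.90, 0.392 and 0.398, 4.42 and 5.05, and 2.45 and 4.52% of 34961 windows of all genes. Receptor windows were thus below all windows in both wild-type HP1b libraries and above them in both libraries of each knockdown, at counts of 1 to 12 windows. Receptor promoters were poor in G and C, with a median of 38.3% against 58.7% over all 35116 promoter windows. A homeodomain core, TAATTA, stood on either strand of 20.9% of receptor windows and 4.84% of all windows, TAATGA on 20.9 and 8.76%, and the TATA box TATAAA on 34.2 and 11.5%. These motifs were searched on both strands and may share bases with one another. The palindrome bound by the EBF factors, regulators of receptor choice, was in 1.07% of receptor windows and 1.21% of all windows. Of the printed runs, OR4F6 held TAATTA outside the capitals, and OR7D2 held TAATGA and the EBF palindrome within them.

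Receptor genes outside chromosome 11 had a peak less often than all protein-coding genes, and they were shorter, with median bounds of 5114.5 against 24170.5 bases. The part of length in this difference was not tested. As a share of bases the difference did not hold in every library: receptor genes were covered on average over 2.55 and 1.41% in wild-type HP1a, 0.629 and 0.585% in HP1a with HP1b knocked down, 3.48 and 3.93% in wild-type HP1b and 4.07 and 7.29% in HP1b with HP1a knocked down. All protein-coding genes averaged 1.99 and 1.52, 0.323 and 0.278, 4.03 and 4.44, and 2.30 and 4.06% in the same order, so that receptor genes were the higher ones in both libraries of each knockdown and the lower ones in both of wild-type HP1b. A peak was found in both wild-type HP1a libraries at 27 of the 220 genes (12.3%, against 39.8% of all protein-coding genes) and in both wild-type HP1b libraries at 47 (21.4%, against 55.6%). In both libraries of HP1a with HP1b knocked down 7 genes had a peak (3.18%, against 9.59%). In both libraries of HP1b with HP1a knocked down 69 did (31.4%, against 39.3%). The paired libraries often listed different receptor genes: of the genes with a peak in either wild-type HP1a library, 29.3% had one in both, against 63.3% over all genes. Over the 8 libraries, 50 receptor genes had no peak at all (22.7%, against 15.8% of all genes), 35 had one in a single library (15.9%, against 11.8%) and 5 in all 8 (2.27%, against 8.35%). The strongest peak of a receptor gene was close in height to the median peak of the list. Its median fold enrichment lay between 2.80 and 3.42 in the 8 libraries, and the median of all peaks in the same lists between 2.79 and 3.37. These are unlike measures: the first is a maximum over the peaks of a gene (median 1, at most 25), and the second counts every peak. The shares also depend on gene bounds, which ran from 930 to 163987 bases, and 34 genes had windows that overlapped another receptor gene's.

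**Figure D1:**
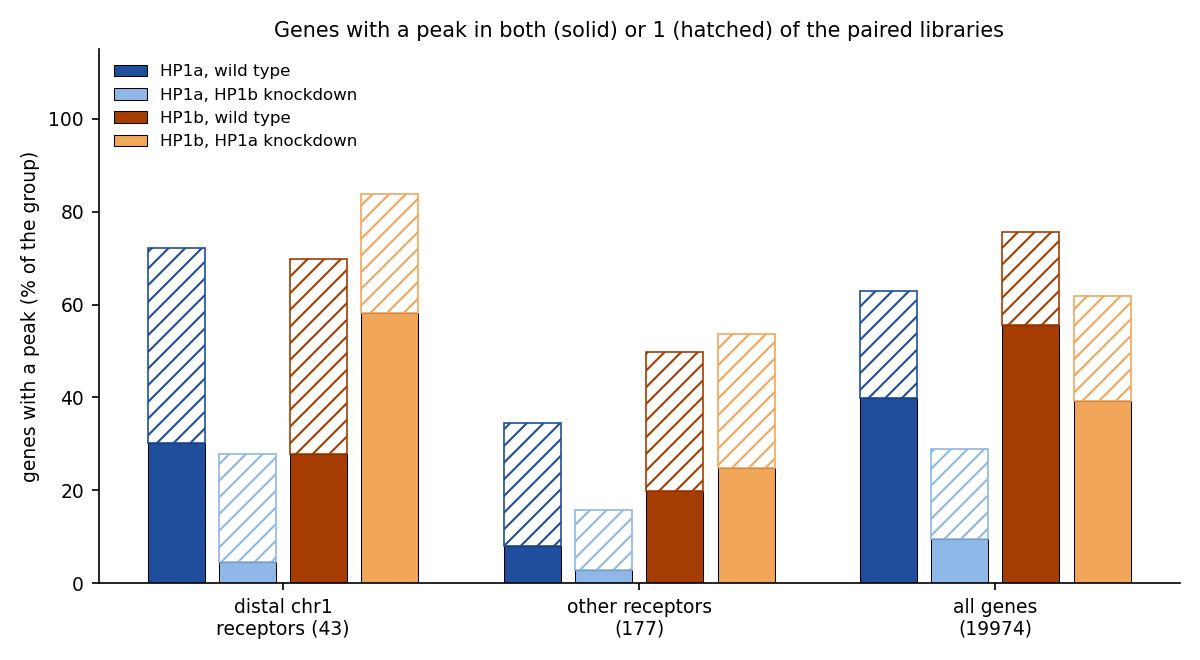
Share of genes (%) with a peak in both libraries of a group (solid) or in 1 of them (hatched), for the 43 distal receptor genes, the 177 other receptor genes and all 19974 genes. The solid bar of the distal genes stands at 13, 2, 12 and 25 of 43 genes for HP1a in wild type, HP1a in HP1b knockdown, HP1b in wild type and HP1b in HP1a knockdown.

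In wild-type HP1a the mean covered share of the distal cluster was 5.38 and 3.48% in replicates 1 and 2, against 1.86 and 0.903% over the 177 other receptor genes, a ratio of 3.38 ± 0.680 (SD, n = 2). In HP1a with HP1b knocked down it was 1.19 and 0.434%, against 0.493 and 0.622%, so that the distal genes were above the others in replicate 1 and below them in replicate 2. In wild-type HP1b it was 4.70 and 4.49%, against 3.19 and 3.80%, a ratio of 1.33 ± 0.205. When every base was counted once over overlapping windows, the wild-type HP1b ratio was 0.954 and the wild-type HP1a ratio 2.06. In HP1b with HP1a knocked down the distal genes stood at 7.91 and 7.98% in the pair of libraries, almost the same value, while the other receptor genes stood at 3.13 and 7.13%. The ratio was therefore 2.53 in replicate 1 and 1.12 in replicate 2, and the difference between the libraries came from the other receptor genes. The 12 protein-coding genes that are not receptors in the same stretch of chromosome 1 were covered far more in every library, at 15.4 and 10.7% in wild-type HP1a, 2.18 and 1.48% in HP1a with HP1b knocked down, 17.7 and 17.5% in wild-type HP1b, and 15.7 and 18.2% in HP1b with HP1a knocked down. The receptor span itself, gaps included, was covered over 5.08 and 5.16% by wild-type HP1b. The distal receptor genes thus lay near genes of high coverage, and the part of that neighbourhood in their level was not tested.

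**Figure D2:**
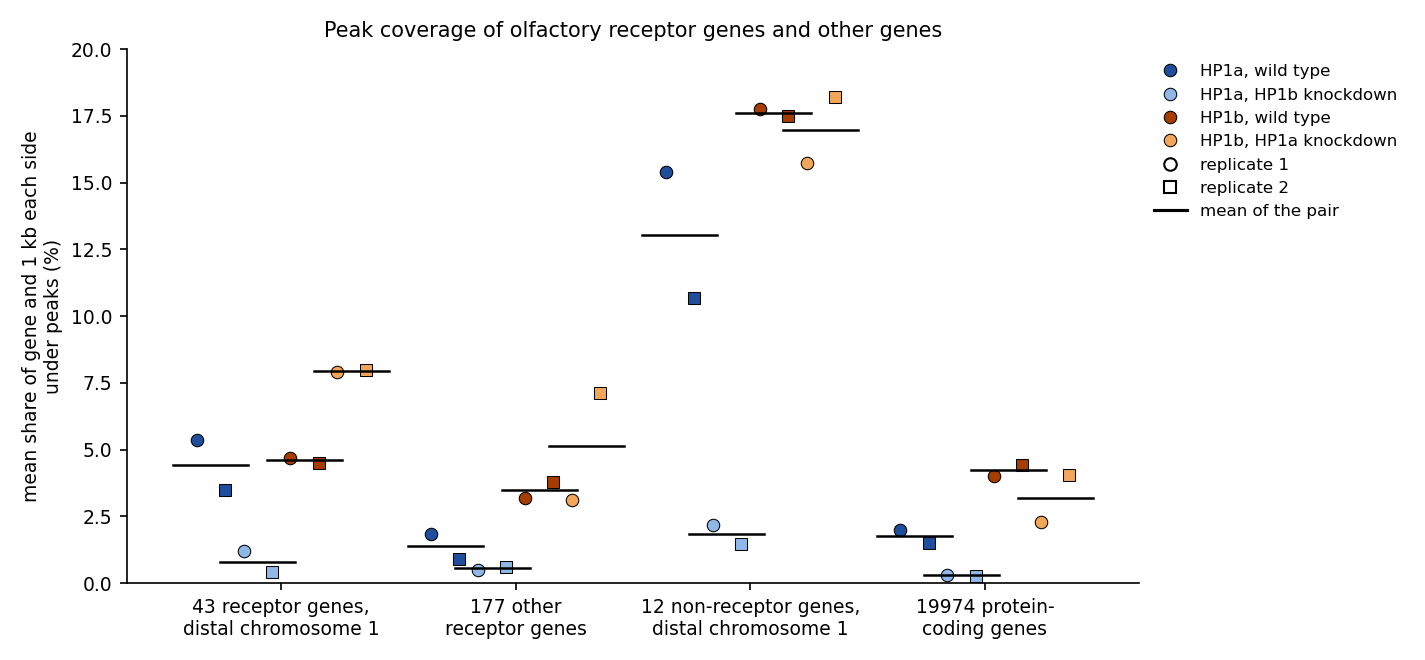
Mean covered share (%, gene and 1 kb each side) in each of the 8 libraries for the distal receptor genes, the other receptor genes, the non-receptor genes of the same chromosome end and all protein-coding genes; bars are means of the paired libraries. The distal receptor genes reach 7.91 and 7.98% for HP1b in HP1a knockdown, above 4.70 and 4.49% in wild type.

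Across whole clusters, gaps between genes included, the 8 receptor genes of chr19:8721634-9252625 lay in the most densely covered span. Wild-type HP1b peaks covered 16.8 and 20.7% of it and wild-type HP1a peaks 5.69 and 4.43%. Its genes include OR7D4, a receptor for the steroid odorant androstenone, whose covered share in the order used above was 0 and 4.12, 12.4 and 0, 15.7 and 20.1, and 23.6 and 49.5%. OR7D4 lies inside the bounds of OR7E24 and shares its peaks. The distal chromosome 1 span was covered over 4.24 and 3.85% by wild-type HP1a and over 5.08 and 5.16% by wild-type HP1b. The 15 genes of the other chromosome 1 cluster (chr1:158398522-159536007) lay in a span covered over 3.32 and 2.53% by wild-type HP1a and 4.56 and 4.81% by wild-type HP1b. At the low end, wild-type HP1a covered 0.196 and 0.389% of the 8-gene cluster at chr9:104504263-104695462 and 0.622 and 0.453% of the 15-gene cluster at chr12:55126406-55637833. No cluster lacked peaks altogether. Genes without a peak in any library were 5 of 10 in the chromosome 3 cluster, 7 of 15 on chromosome 12 and 8 of 23 on chromosome 14. They were 5 of 14 on chromosome 6, 3 of 8 in the chr9:104504263-104695462 cluster and 2 of 43 in the distal cluster, beside 15.8% of all genes. The broadly tuned receptor OR2W1, in the chromosome 6 cluster beside the major histocompatibility complex, was also without a peak in all 8.

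**Figure D3:**
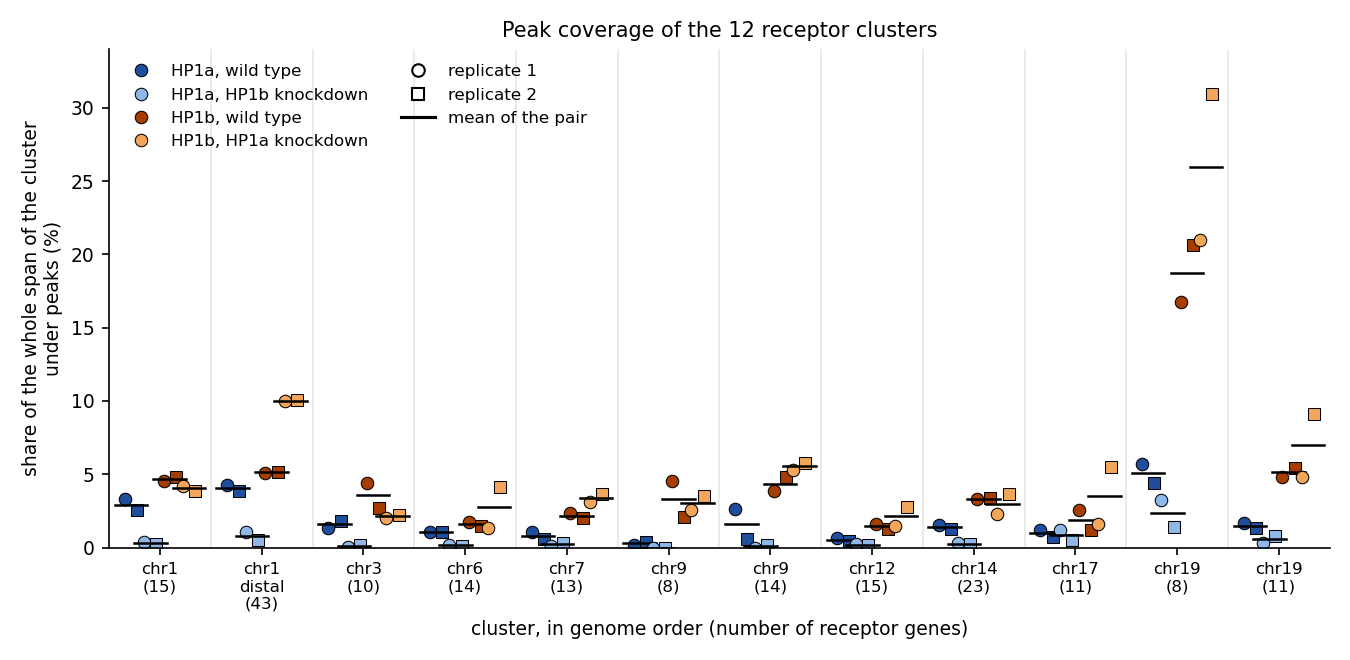
Share (%) of the whole span of each of the 12 receptor clusters under peaks, in genome order, with 1 point for each library and bars for means of the paired libraries. For HP1b the distal chromosome 1 cluster goes from 5.08 and 5.16% in wild type to 10.01 and 10.04% in HP1a knockdown; the first chromosome 19 cluster is the highest, at 16.8 to 31.0%.

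When HP1b was knocked down, the HP1a-covered share of receptor genes went from 2.55 and 1.41% to 0.629 and 0.585%, and that of all genes from 1.99 and 1.52% to 0.323 and 0.278%. For the test by limma with Benjamini-Hochberg adjustment over all genes, a gene was fitted if at least 2 of the 4 libraries had a peak, and its covered bases were divided by the Mb under peaks in the library, so that a call is relative to the library total. Of the 220 receptor genes 37 could be fitted; 10 of these were called lower (27.0%, beside 28.9% of all 8878 genes fitted) and none higher (beside 1.79%). All 10 were listed at 0 in both HP1b-knockdown libraries and entered the fit only through their wild-type peaks, as 12 of the 37 receptor genes and 42.1% of all genes fitted did. Such genes had to differ, so the calls describe the lists and support nothing further. Without that filter the lowest adjusted p of a receptor gene was 0.266.

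The 10 genes were OR2B11, OR2G3, OR6F1, OR2AK2, OR2T2 and OR14I1 in the distal cluster, OR10K1 in the other chromosome 1 cluster, OR2V2 on chromosome 5, OR1L8 on chromosome 9 and OR6J1 on chromosome 14. OR2AK2 (chr1:247965233-247966386) had the largest wild-type shares of the 10, at 17.5 and 23.3% (mean 20.4%, SD 4.07, n = 2), and 0 and 0 after the knockdown. OR2G3 (chr1:247605586-247606515) had 15.2 and 15.6% in wild type and 0 and 0 after it. OR6F1 (chr1:247711436-247716646) went from 10.8 and 14.2% to 0 and 0. OR14I1, the last gene of the distal cluster, had 8.01 and 3.52% in wild type, and OR2V2, on the end of chromosome 5, 7.52 and 4.97%. OR1L8 was called at the lowest coverage, 0.925 and 0.844%.

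Counted by peaks alone, 12 of the 27 receptor genes with a peak in both wild-type HP1a libraries had none in either HP1b-knockdown library (44.4%, beside 47% of all genes), 6 had one in all 4, and none of the 128 without a wild-type peak gained one in both (beside 0.728%). Both knockdown libraries were below both wild-type libraries at 21 of the 220 genes, 11 of them among the 43 distal genes, and above at none, beside 35.2 and 0.666% of all genes. The calls depended on how the lists were filtered. With the same number of peaks from each library, 19092, none of the 220 genes was called lower, and the same held with a pseudocount 4 times as large, without the filter, and without either wild-type library in turn; without replicate 1 or 2 of the HP1b knockdown 3 and 1 were called lower, and 6 and 7 higher.

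The distal span as a whole went from 4.24 and 3.85% under wild-type HP1a peaks (mean 4.04%, SD 0.275, n = 2) to 1.04 and 0.514% after HP1b knockdown (mean 0.775%, SD 0.369). Both knockdown libraries were below both wild-type libraries in 21 of the 26 bins of 50 kb along it, beside 58.7% of 55971 bins genome-wide that had a peak. The last of the 26 bins lies mostly past the last receptor gene. Per Mb under peaks in the whole list, however, the span held 760 and 798 bases in wild type and 1314 and 666 after the knockdown, which overlap. With equal numbers of peaks the order turned, at 0.233 and 0.419% in wild type against 1.04 and 0.514%. Per Mb the knockdown libraries thus lay on both sides of the wild-type pair. No direction relative to the lists as a whole is given for the distal cluster.

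A peak was listed in both libraries of HP1a with HP1b knocked down at 7 receptor genes, 6 of which also had one in both wild-type libraries (22.2% of 27, beside 21.7% of all genes). They were OR2L13 and OR2T6 in the distal cluster, OR2A1 on chromosome 7, OR2C1 on chromosome 16, OR3A2 on chromosome 17, and OR1M1 and OR7E24 on chromosome 19. OR7E24 had 0.393 and 5.44% in wild type and 6.05 and 1.63% after the knockdown, a fitted log2 difference of 3.08 (SE 1.35, limma adjusted p = 0.198). OR1M1 had 1.97 and 0% in wild type and 0.999 and 2.68% after it (log2 1.92, SE 0.61, limma adjusted p = 0.109). The shares undivided by library totals overlapped between the groups in both genes, while the fitted differences are relative to those totals. OR2T6 (chr1:248375746-248391811) had 2.96 and 7.60% in wild type and 1.08 and 2.72% after the knockdown. Relative to the library totals its fitted log2 difference was 1.00 (limma adjusted p = 0.489), and with only peaks of −log10 q of at least 2 it was -1.77 (adjusted p = 0.0127), so no direction is given for it. The strongest receptor peak of all lists, with a fold enrichment of 5.57, lay in OR2L13 in replicate 1 of this group.

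When HP1a was knocked down, the HP1b-covered share of receptor genes was higher in both libraries, at 4.07 and 7.29% against 3.48 and 3.93% in wild type, while that of all genes was 2.30 and 4.06% against 4.03 and 4.44%. The distal cluster was at 7.91 and 7.98% against 4.70 and 4.49%. No receptor gene passed the limma threshold in either direction, and neither did any of the 13101 genes fitted (0% rose and 0% fell). At an unadjusted p below 0.05 there were 20 of 109 receptor genes fitted, 16 of them higher after the knockdown, against 3264 of all genes, 653 of them higher. The median fitted log2 difference was 0.60 over the 109 receptor genes, 0.87 over the 32 fitted distal genes, 0.35 over the 77 others and -0.48 over all genes; undivided by the library totals these medians were 0.46, 0.80, 0.29 and -0.58. Of the 109 genes 14 had entered the fit only through peaks of the knockdown and 7 only through peaks of wild type (12.8 and 6.42%, beside 1.56 and 12.0% of all genes fitted), so the medians describe the genes fitted and support nothing further. The 12 non-receptor genes of the same chromosome end, all fitted, had a median of 0.05. As a ratio of mean covered shares, the distal receptor genes stood at 0.265 and 0.257 of these neighbours in wild-type HP1b and at 0.503 and 0.439 with HP1a knocked down.

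By peaks, 14 of the 102 receptor genes without a wild-type HP1b peak gained one in both HP1a-knockdown libraries (13.7%, beside 4.21% of all genes), 6 of them among the 13 such genes of the distal cluster. They were OR2G2, OR2G3, OR13G1, OR14A16, OR14L1 and OR2T35 there, OR2A2, OR2A5 and OR2A25 on chromosome 7, OR11H4 and OR5AU1 on chromosome 14, OR14J1 on chromosome 6, OR6B2 on chromosome 2 and OR4F6 on chromosome 15. In the opposite direction 7 of 47 genes lost their peaks (beside 14.2%), and 32 kept them (beside 63.6%). Both knockdown libraries were above both wild-type libraries at 37 of the 220 genes, 16 of them distal, beside 6.77% of all genes, and below them at 10 genes, 3 of them distal, beside 27.4%. Leaving out a library raised the number of gains to between 23 and 33, since a single library then stood for its group.

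OR2A5 (chr7:144048948-144058845) had the largest moderated t. It was listed at 0 in both wild-type HP1b libraries and in all 4 HP1a libraries, and had 12.8 and 13.1% in HP1b with HP1a knocked down (limma adjusted p = 0.144, and 0.04996, just under the threshold, with all 8 libraries in the fit). OR2A2, farther along the same cluster, was likewise listed at 0 in the 6 other libraries and had 15.5 and 16.8% (limma adjusted p = 0.144). OR13G1 (chr1:247670812-247679739) had 5.02 and 11.7% against 0 and 0 in wild type (limma adjusted p = 0.144, and 0.04996 with all 8 libraries). OR11H4 had 6.31 and 8.52% against 0 and 0, and OR10R2 went the other way, from 5.14 and 4.52% to 0 and 0. In these 5 genes the groups did not overlap; each entered the fit through the libraries of 1 group only, and none of the differences passed the threshold in the fit of the 4 libraries compared.

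OR2L13 (chr1:247937177-248101163) is the longest gene of the set, and 6 other receptor genes overlap its window. Its share under HP1b peaks was 4.69 and 4.15% in wild type and 12.0 and 7.43% with HP1a knocked down, in 14 and 13 against 25 and 22 separate peaks. The fitted log2 difference was 1.24 (SE 0.44, limma adjusted p = 0.177), and without replicate 2 of the HP1a knockdown it was 1.81 with an adjusted p of 1.10e-04. OR2W3, in the distal cluster, had 0 and 43.6% in wild type and 33.4 and 55.9% after the knockdown. OR1C1 had 5.28 and 0% in wild type and 12.3 and 18.3% after it. OR2M3, a receptor known for a thiol odorant of onion, had 6.93 and 3.03% in wild type and 7.89 and 8.66% after it. In OR2L13, OR1C1 and OR2M3 both knockdown libraries were the higher ones, and in OR2W3 replicate 2 of wild type lay between them. Both knockdown libraries were the lower ones at 3 distal genes. OR2T4 went from 16.6 and 8.17% to 0 and 1.86%, and OR2M7 from 26.2 and 40.2% to 16.3 and 0%. OR2T11 went from 6.45 and 1.29% to 0 and 0.

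The distal span as a whole was covered over 5.08 and 5.16% by HP1b peaks in wild type (mean 5.12%, SD 0.0556, n = 2) and over 10.01 and 10.04% with HP1a knocked down (mean 10.02%, SD 0.0205), a ratio of 1.96. Both knockdown libraries were above both wild-type libraries in 21 of its 26 bins of 50 kb, beside 15.1% of the 55971 bins. The excess was spread unevenly along the cluster. The bin that starts 300 kb after the first receptor gene went from 13.3 and 16.2% to 27.7 and 29.6%. The bin that starts at 150 kb went from 4.36 and 3.58% to 13.9 and 14.6%. At 1100 kb the change was small, from 1.72 and 1.72% to 2.29 and 2.39%. The last bin, which is among the 21, lies mostly past the last receptor gene. Per Mb under peaks in the whole list the span held 403 and 412 bases in wild type and 1060 and 763 after the knockdown. With peaks of −log10 p of at least 4 only, it was covered over 1.02 and 1.36% against 4.31 and 5.08%, and with equal numbers of peaks over 4.09 and 3.79% against 10.01 and 9.01%. The groups did not overlap under any of these settings. An exact permutation test of 2 against 2 libraries cannot give a p below 0.33.

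**Figure D4:**
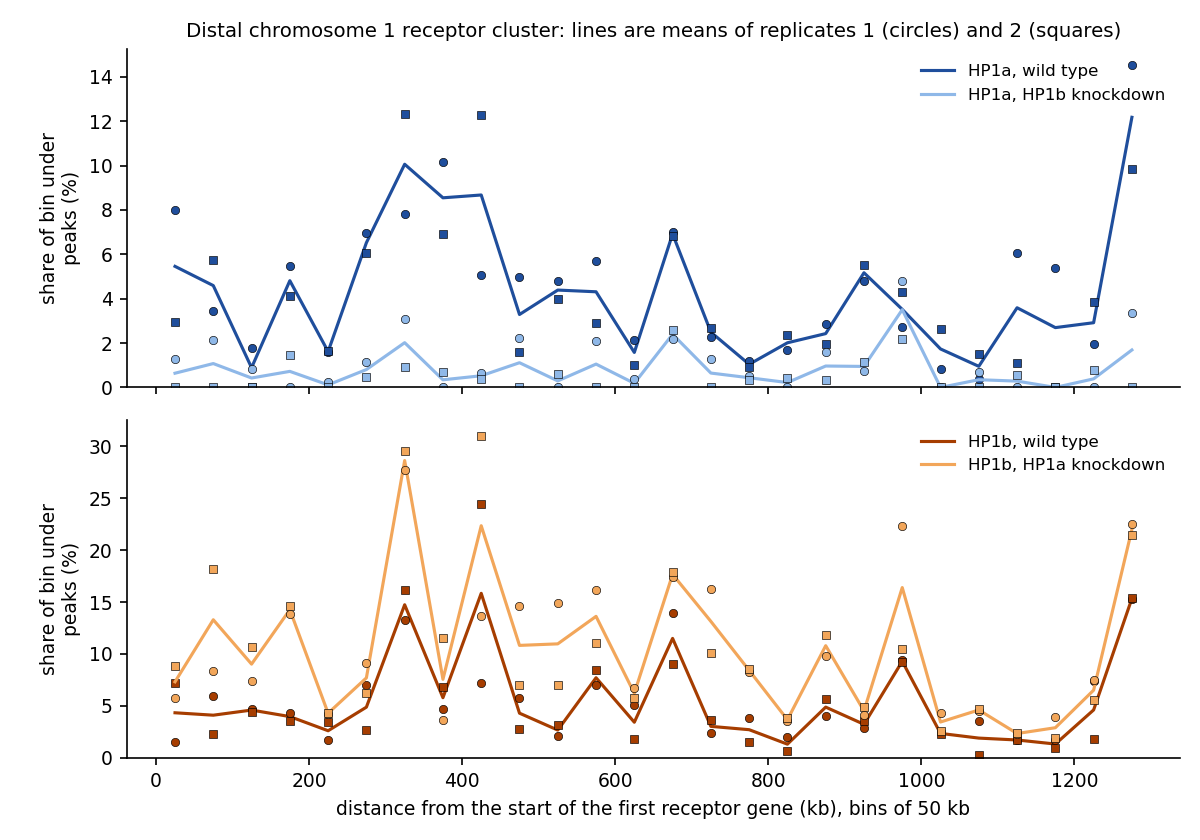
Share (%) of each bin of 50 kb under HP1a peaks (top) and HP1b peaks (bottom) along the distal chromosome 1 cluster, by distance from the start of its first receptor gene (the last bin runs past the last one); points are libraries and lines are means of the pair. In 21 of 26 bins both libraries of HP1b in HP1a knockdown lie above both wild-type libraries, and in 21 of 26 both of HP1a in HP1b knockdown lie below.

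The other clusters differed among themselves. On chromosome 7 (chr7:143026200-144322737, 13 genes) the HP1b-covered share of the span was 2.33 and 2.02% in wild type and 3.11 and 3.65% with HP1a knocked down, and the mean share of its genes went from 2.74 and 1.65% to 5.68 and 7.65%. On chromosome 19 the 8-gene span went from 16.8 and 20.7% to 21.0 and 31.0%. In the cluster of 14 genes at chr9:122447433-122801073 it went from 3.87 and 4.79% to 5.32 and 5.80%. In these 3 and the distal cluster both knockdown libraries were the higher ones. On chromosome 3 (chr3:98087173-98498631, 10 genes) they were the lower ones, at 2.03 and 2.21% against 4.42 and 2.71%, as they were in the other chromosome 1 cluster, at 4.20 and 3.88% against 4.56 and 4.81%. In the other 6 clusters the libraries overlapped, and in 5 of these replicate 2 of the knockdown was the highest of the 4. Per Mb under peaks in the library, both knockdown libraries were the higher ones in 7 clusters. These were the 4 named above, the chromosome 6 and chromosome 12 clusters and the other chromosome 19 cluster. On that scale only the chromosome 3 cluster was lower in both, and the libraries of the other chromosome 1 cluster overlapped.

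In wild-type cells the HP1b and HP1a libraries were compared with each other, which uses the same wild-type HP1a libraries as the comparison with HP1b knockdown and the same wild-type HP1b libraries as the comparison with HP1a knockdown. No receptor gene passed the limma threshold in either direction, and none of the 13090 genes fitted did (0% rose and 0% fell). Of the 82 receptor genes fitted, 11 had an unadjusted limma p below 0.05, 7 of them with more HP1b than HP1a. Of all 13090 genes fitted 1665 did, 1156 of them with more HP1b. Relative to the library totals the median log2 difference (HP1b minus HP1a) was -0.57 over the 29 fitted distal genes, 0.26 over the 53 others and 0.10 over all genes. Undivided by those totals the medians were 0.12, 0.81 and 1.05, so that the sign over the distal genes turned with the scaling, while under both they lay below the median of all genes. Of the 82 genes 2 had entered the fit only through HP1a peaks and 11 only through HP1b peaks. These were 2.44 and 13.4%, beside 0.894 and 10.1% of all genes fitted. By peaks, 11 of the 128 receptor genes without wild-type HP1a peaks had HP1b peaks in both libraries (8.59%, beside 17.9% of all genes). Of the 27 with HP1a peaks in both, 2 had no HP1b peak (beside 1.47%) and 16 had HP1b peaks in both (beside 92%). Both HP1b libraries were above both HP1a libraries at 29 of the 220 genes and below at 8, 6 of the 8 distal, beside 38.3 and 1.87% of all genes.

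The 2 genes with HP1a peaks only were both distal. OR2G3 had 15.2 and 15.6% under wild-type HP1a peaks and 0 and 0 under wild-type HP1b peaks, and OR2T6 had 2.96 and 7.60% against 0 and 0. OR2G3 is also one of the 10 genes called lower in HP1a with HP1b knocked down, and it had 2.59 and 13.8% under HP1b peaks with HP1a knocked down. The HP1b difference of OR2G3 between HP1a knockdown and wild type did not pass the threshold (limma adjusted p = 0.280). Whether one paralog took the place of the other there was not tested. On the other side, OR10H4 and OR10H3 on chromosome 19 had 27.8 and 28.2%, and 17.3 and 12.5%, under wild-type HP1b peaks and 0 under both wild-type HP1a lists. The adjusted p by limma of these 4 genes was 0.360. OR10R2 on chromosome 1 had 5.14 and 4.52% against 0 and 0.

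Several of the highest wild-type shares belonged to short genes and to a single library of the pair. For HP1a, OR2T34 had 50.2 and 0%, OR10T2 29.2 and 0%, OR5AU1 26.2 and 0% and OR6K6 0 and 20.2%. For HP1b, OR10AD1 had 37.4 and 0%, OR5C1 0 and 42.0% and OR1L4 0 and 38.2%. In these 7 genes one peak list covered a large part of a short window and the paired list covered none. Other genes among the highest, OR2AK2, OR2G3 and OR10H4 above included, had peaks in both libraries of a group. OR2M7 had 26.2 and 40.2% and OR2M5 31.1 and 22.5% under wild-type HP1b peaks. OR7G2 had 22.5 and 19.3% under them, and OR10J1, a gene of 43503 bases, had 14.6 and 8.13% under wild-type HP1a peaks and 13.1 and 15.6% under wild-type HP1b peaks.

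Peaks were listed in all 8 libraries at 5 receptor genes, OR2L13, OR2A1, OR2C1, OR3A2 and OR7E24. These genes ran from 10659 bases (OR2A1) to 163987 (OR2L13), against the median of 5114.5 over the set. OR2C1 (chr16:3322931-3358137) had 5.50 and 2.10% under wild-type HP1a peaks, 0.634 and 1.51% after HP1b knockdown, 16.3 and 12.3% under wild-type HP1b peaks and 11.3 and 30.7% after HP1a knockdown. OR2A1 had 5.41 and 8.30, 1.52 and 4.91, 21.6 and 6.64, and 3.85 and 17.5% in the same order. OR3A2 (chr17:3276113-3386308) was covered thinly in all 8 libraries, at 1.26 and 1.09, 0.578 and 0.487, 1.27 and 1.51, and 1.52 and 3.38%. OR1A1, a receptor for citrus and mint odorants that lies in the same chromosome 17 cluster, had 2.28 and 4.04, 0 and 5.16, 1.71 and 1.46, and 0 and 7.45%. Its libraries overlapped between the groups of each comparison except wild-type HP1b against HP1a, where both HP1b shares were the lower ones.

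**Figure D5:**
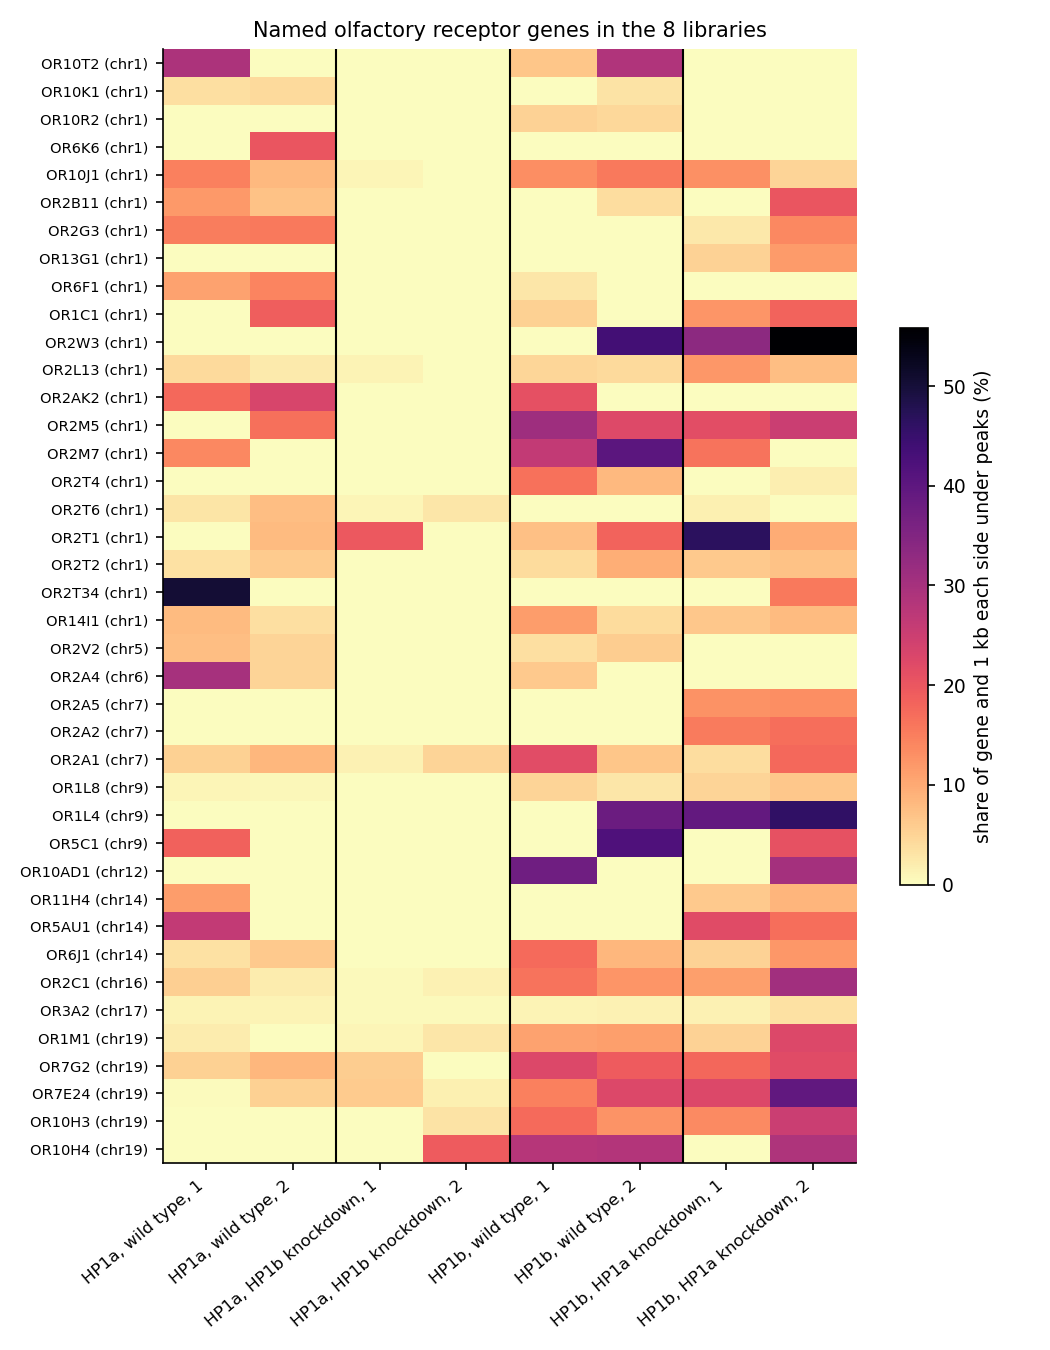
Covered share (%, colour) of the named receptor genes in genome order (rows) in the 8 libraries (columns, groups parted by black lines). The columns of HP1a in HP1b knockdown are nearly empty; OR2A5 and OR2A2 are filled only in the columns of HP1b in HP1a knockdown, at 12.8 to 16.8%.

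Genes that act with the receptors had a peak more often than the receptors themselves, and they were longer, with median bounds of 64222 against 5114.5 bases. Of 23 genes of odorant signalling and receptor choice, 13 had a peak in both wild-type HP1a libraries (56.5%, beside 39.8% of all genes) and 16 in both wild-type HP1b libraries (69.6%, beside 55.6%). In the comparison of HP1a with HP1b knocked down, 13 could be fitted; by limma with Benjamini-Hochberg adjustment 1 rose and 4 fell (beside 1.79 and 28.9% of all genes fitted). The 4 that fell had no peak after the knockdown and had entered the fit only through their wild-type peaks. They were GNAL, the olfactory G protein alpha subunit, RIC8B, its folding factor, RTP1, a receptor transport protein, and KDM1A, a histone demethylase of receptor choice. ANO2, the chloride channel of olfactory cilia, rose by 2.75 on the log2 scale (SE 0.36, limma adjusted p = 0.0248): its share was 2.32 and 3.08% after the knockdown and 3.58 and 1.84% in wild type, in lists of unequal total coverage. With HP1a knocked down the HP1b share of ANO2 was 28.9 and 31.7%, against 11.1 and 10.5% in wild type (log2 1.65, SE 0.18, limma adjusted p = 0.144). None of the 18 genes fitted there passed the threshold. Among other chemoreceptors, 12 of 25 bitter taste receptor genes and 2 of 6 trace amine receptor genes had no peak in any library, beside 50 of the 220 odorant receptor genes and 3156 of all 19974 genes. Median bounds were 1075 bases for the bitter taste and 4105.5 for the trace amine receptors, against 5114.5 for the odorant receptors. The part of length in these counts was not tested. All 3 vomeronasal type 1 receptor genes had a peak in some library. Their mean share was 7.42 and 0% under wild-type HP1a peaks, 2.86 and 0% after HP1b knockdown, 16.4 and 12.2% under wild-type HP1b peaks and 33.0 and 26.8% after HP1a knockdown.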

How the data were processed

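Reads went through Trimmomatic, Bowtie2 and SAMtools to MACS3 peak calls on hg38, per the submitters' processing notes. Not given in the sources used here are versions, peak settings, the input library and the handling of reads that match several receptor genes. For every broad peak the authors' deposited lists hold start and end positions with a score, a fold enrichment as a ratio, a −log10 p and a −log10 q; the lowest −log10 p of a list ran from 2.54 to 3.43. They hold no read counts, so no counting error or detection floor could be set.

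Peaks on chromosomes 1 to 22 and X (99.1 to 99.7% of each list) were merged within a list, and covered bases were counted over RefSeq gene bounds (GRCh38.p14) plus 1 kb each side with Python 3.11.15. For the tests, covered bases per Mb under peaks in the library, plus a pseudocount, the 10th percentile of values above 0, were taken to log2 and fitted by limma 3.58.1 (R 4.3.3, variance trend) for each comparison on its 4 libraries. Genes needed a peak in at least 2 of the 4, with Benjamini-Hochberg adjustment over all genes fitted (threshold 0.05). The code was tested on simulated data. Lost genes had a peak in both libraries of the first group and none of the second, gained genes the reverse, and kept genes a peak in all 4.

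The named genes were, in each comparison, up to 8 past the threshold in each direction or the 5 of largest moderated t; the 6 distal and 6 other genes with the highest wild-type shares for each paralog; up to 10 with HP1a peaks in both HP1b-knockdown libraries; and those with peaks in all 8. The remaining names complete a count or belong to receptors with a known odorant, and were chosen after their values were seen. The genes and lists were chosen with earlier results of these data known.

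Alternatives changed the peaks used, the flank, filter, scaling, pseudocount, libraries fitted and replicate block. Every base counted once, the share of genes with a peak, genes up to 20 kb and the settings for the distal span were added after the data were seen.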

Additional observations from a re-analysis of the deposited data

Results flagged for a closer look

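At 6 of the 220 receptor genes (2.73%, beside 2.70% of all 19974 genes), both HP1a libraries from the HP1b knockdown lay below both wild-type HP1a libraries while both HP1b libraries from the HP1a knockdown lay above both wild-type HP1b libraries. The difference between the knockdown effects was not tested in any of them. Values are knockdown minus wild type, in percentage points of the covered share, first for HP1a and then for HP1b. OR2G3 differed by -15.36 and 8.174 points, OR2L2 by -3.316 and 4.808, OR2M4 by -2.847 and 4.766, and OR2L13, whose window overlaps those of other receptor genes, by -2.605 and 5.313; these 4 genes lie in the distal cluster. OR1L8 differed by -0.8846 and 1.907 points and OR3A2 by -0.6466 and 1.054. By the mean share of their genes, 2 of the 12 clusters moved likewise: the distal cluster, by -3.62 and 3.351 points, and the chromosome 7 cluster, by -1.012 and 4.469. By the share of the whole span 4 clusters did: the distal span by -3.267 and 4.898 points, the chromosome 7 span by -0.5947 and 1.206, the chr9:122447433-122801073 span by -1.533 and 1.233, and the 8-gene chromosome 19 span by -2.732 and 7.25. The HP1a lists from the HP1b knockdown were far shorter as a whole. The HP1b lists from the HP1a knockdown were not longer in every library than those of wild type. The shares above were not divided by library totals. Per Mb under peaks, the chromosome 19 span held 433 and 390 HP1a bases in wild type and 1745 and 775 after HP1b knockdown. In the distal, chromosome 7 and chr9:122447433-122801073 spans the HP1a libraries then overlapped. Divided likewise, the fitted HP1a log2 difference was -1.30 in OR2G3, -1.08 in OR1L8 and -0.295 in OR2M4. It was -0.0044 in OR2L13, 0.121 in OR2L2 and 1.39 in OR3A2.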

How the results depend on the processing

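Of 899 fitted differences of named genes under alternatives, 73 had the other sign, 13 of them without scaling; no gene called in the fit reported was among them. Of the 73, 2 passed the threshold in HP1a with HP1b knocked down: OR2T6, at -1.77 with −log10 q of at least 2, and OR2L13, at -1.3033 and 1.2854 without replicate 1 and without replicate 2 of that knockdown, the latter past the threshold. In the same comparison the median over all genes fitted was -1.23, and -2.15 without scaling, and over receptor genes 0.21 and -1.21. There 10 receptor genes fell, and with the same number of peaks 0 did. It was also 0 with −log10 p of at least 4, a pseudocount 4 times as large and no filter, 2 with −log10 q of at least 2, and 0 to 3 without 1 library. Genes that rose numbered 0 to 7 without 1 library. Lost genes (12) were 0, 1 and 2 with equal numbers of peaks, −log10 p of at least 4 and −log10 q of at least 2, 3 when 10% of a window had to be covered, and 15 to 47 without 1 library. Gained genes (0) were 3 with equal numbers and 0 to 9 without 1 library; kept genes (6) were 1, 1, 0 and 0 in the first order and 6 to 12 without 1 library.

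For HP1b with HP1a knocked down, 2 genes rose with all 8 libraries in a single fit and 0 to 3 without 1 library. Lost genes (7) were 1, 1, 0 and 0 under equal numbers, −log10 p, −log10 q and 10% coverage, and 9 to 21 without 1 library. Gained genes (14) were 9, 5 and 5 under the last 3, and 23 to 33 without 1 library. Kept genes (32) were 4, 1 and 7 under the last 3, and 34 to 46 without 1 library. For wild-type HP1b against HP1a, 0 to 1 genes rose without 1 library. Lost genes (2) were 6, 1 and 1 under equal numbers, −log10 p and −log10 q, and 6 to 17 without 1 library. Gained genes (11) were 3, 0 and 1, and 19 to 32 without 1 library. Kept genes (16) were 10, 2, 0 and, with 10% coverage, 0, and 20 to 28 without 1 library.

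The ratio of distal to other receptor genes in wild-type HP1a, 3.376, was 11.08 with equal numbers of peaks, 12.61 with −log10 q of at least 2, 4.338 without flanks, 2.064 with each base counted once, 2.431 as a share of genes with a peak, and 2.895 to 3.857 without 1 library. In HP1a with HP1b knocked down, 1.551, it was 0.6972 to 2.405 without 1 library, and with −log10 q of at least 2 it had no value. In wild-type HP1b, 1.328, it was 2.642 and 25.83 with −log10 p and −log10 q, 1.623 without flanks, 0.9543 with each base counted once, and 1.183 to 1.472 without 1 library. In HP1b with HP1a knocked down, 1.823, it was 3.45 and 8.375 with −log10 p and −log10 q, and 1.119 to 2.526 without 1 library. The distal span, knockdown over wild type, for HP1a (0.1918) was 0.5819 with −log10 p of at least 4, 2.376 with equal numbers of peaks and 1.27 per Mb of peak bases, and 0.1272 to 0.2564 without 1 library. For HP1b (1.956) it was 3.947, 10.79, 2.412 and 2.237 with −log10 p, −log10 q, equal numbers and per Mb, and 1.941 to 1.971 without 1 library. Apart from fewer peaks or libraries, the cause was not tested.

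The replicate numbers share only a number: the deviations of same-numbered libraries correlated at 0.0233, 0.0440 and -0.0133 in the 3 comparisons. With a replicate block 0 receptor genes fell in HP1a with HP1b knocked down, and no count of the other comparisons changed. The median over genes gave no finite ratio, since most genes are at 0. The alternative without near-identical receptor proteins was not run, because protein sequences were not used here. Where an arm kept 1 library, it was assumed to vary like the other group. Depth is unknown, so a receptor gene without a peak cannot be told from one below detection.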
